A study of Mus musculus with 45 samples.

Results

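The cytosolic ribosomal protein genes were taken as all genes in both deposited tables of TPM (transcript levels scaled to length and library) whose symbol begins with Rpl or Rps, with or without the letter p of the stalk proteins, followed by a digit, leaving out the Rps6k kinases. The rule gave 86 of the 15828 genes that both TPM tables hold. The count tables list 55401 genes, and 383 of their symbols match the rule, 297 of them without a TPM value. Of these 297 genes, 288 have the mark -ps of a pseudogene in the symbol. The 86 members hold 50 symbols of the large subunit (60S), the 3 stalk proteins Rplp0, Rplp1 and Rplp2, 32 of the small subunit (40S), and Rps19bp1, which encodes a binding partner of Rps19 and no ribosomal protein. They lie on 20 chromosomes.

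The libraries came from kidneys of 45 mice taken at 7 weeks by translating ribosome affinity purification (TRAP), with 1 mouse per library. All mice carried R26Rpl10a, which gives the EGFP-tagged ribosomal protein L10a once Cre has acted, together with Pax8rtTA and TetOCre, and all took doxycycline from postnatal day 28 to 42. Noncystic mice were Pkd1fl/+, Pkd1KO mice were Pkd1fl/fl, and Pkd1KO+ciliaKO mice were Pkd1fl/fl and Kif3afl/fl, so that cilia were lost along with polycystin-1. There were 8, 7 and 9 male and 7, 8 and 6 female mice of these genotypes, in this order. Pax8rtTA drives Cre in the epithelium of the nephron tubule, and the noncystic mice also lose their 1 floxed Pkd1 allele where Cre acts.

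Each ribosome is built from ribosomal RNA and a single copy of most of these proteins, so the genes are transcribed at high and matched rates in nearly every cell. Most of their mRNAs begin with a cytosine followed by a run of pyrimidines, the 5′ terminal oligopyrimidine (TOP) tract, through which mTORC1 and LARP1 set how many ribosomes translate them. mTORC1 is a growth pathway known to be active in cyst epithelium. TRAP reads the mRNA held by tagged ribosomes, so a value here reflects both the amount of an mRNA and how much of it was being translated, and fewer cells of a type cannot be told apart from less RNA per cell.

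To show this start, the RefSeq sequence around the annotated transcription start (GRCm38.p6) was read for the 63 members found in the RefSeq promoter table, which held 12269 of the 15828 genes. Each sequence printed here runs from 10 bases before the start to the 20 bases that begin with it, and capitals mark the longest unbroken run of C and T near the start where it reached 8 bases. The first 5 are members of both subunits that begin with C and at least 4 further pyrimidines.

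Rpl38, chr11:114668570-114668599, plus strand: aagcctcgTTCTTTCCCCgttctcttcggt
Rps27, chr3:90213629-90213658, minus strand: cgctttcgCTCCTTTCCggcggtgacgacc
Rpl28, chr7:4792955-4792984, plus strand: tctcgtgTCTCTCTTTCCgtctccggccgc
Rps6, chr4:86857348-86857377, minus strand: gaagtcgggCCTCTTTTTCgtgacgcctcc
Rpl14, chr9:120571507-120571536, plus strand: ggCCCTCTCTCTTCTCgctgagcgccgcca

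The next 5 are the member used for the pulldown (Rpl10a) and 4 of those that passed a test below.

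Rpl10a, chr17:28328461-28328490, plus strand: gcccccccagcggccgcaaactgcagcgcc
Rps19, chr7:24884582-24884611, plus strand: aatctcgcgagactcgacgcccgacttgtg
Rpl3l, chr17:24727816-24727845, plus strand: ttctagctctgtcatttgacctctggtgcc
Rpl22l1, chr3:28805498-28805527, plus strand: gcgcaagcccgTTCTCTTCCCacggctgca
Rpl36al, chr12:69184048-69184077, minus strand: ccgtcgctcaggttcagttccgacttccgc

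A run of at least 8 pyrimidines touched the start region of 27 of the 63 members (42.9%) and of 13.5% of all genes in the table. A start at C followed by at least 4 pyrimidines was annotated for 13 members (20.6%) and for 2.34% of all genes. The letters CCGGAAG, on either strand of the 300 bases that open 250 bases before the start, were present in 23 members (36.5%) against 15.8% of all genes. Of the 10 sequences shown, the muscle-type paralog Rpl3l and the intronless paralog Rpl36al hold no such run, and neither do Rpl10a and Rps19. The RefSeq start can lie some way from the start in the count tables, so that a tract at the start used in the kidney may be missed. The distance was 221 bases for Rps19, 1425 for Rps10, 1947 for Rps2, 2614 for Rpl18 and 3553 for Rps24. The shares above rest on the RefSeq starts.

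The members were among the most abundant mRNAs. Their TPM, a level per gene length, had a median over the 45 mice above 100 in 73 of 86 members and above 1000 in 12, and the median of these medians was 432. Rps15 stood highest at 2113 TPM, followed by Rpl41 at 2001, Rps3a1 at 1751 and Rplp1 at 1716. Rpl10a ranked at 20 with 805 TPM. At the other end 6 members did not exceed 10 TPM. Rpl3l (3.28 TPM) encodes a form of Rpl3 made mainly in heart and skeletal muscle, and Rpl36al (2.36 TPM) is a copy of Rpl36a. Rpl36a-ps1 (1.31 TPM) and Rpl10-ps3 (0.477 TPM) carry pseudogene symbols. Rpl24 (0.904 TPM) and Rps10 (0.652 TPM) encode components of every ribosome, and other genes overlap 47.0% and 28.7% of their exon bases. Overlap was counted on either strand and with genes of any kind. The genes in the span were Gm28037 for Rpl24 and Gm15420 and RPS10-NUDT3 for Rps10. For Rpl35 (66.2% overlap, 247 TPM) they were Arpc5l and Wdr38, and for Rpl23a (62.3%, 180 TPM) Tlcd1 and Snord genes. Why Rpl24 and Rps10 are listed so low was not tested. Every member had at least 3 counts in every mouse.

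Processed copies of ribosomal protein mRNAs are scattered over the genome, and reads from them can be shared with the members. At least 1 run of 50 bases of the member's transcripts occurred in another annotated gene for 83 of the 86, and in 11 members more than 50% of such runs did. How the counting treated reads that fit several places is not given in the sources used here.

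Between 80874556 and 132958186 fragments per library were counted on genes, and 1.73% to 2.92% of them fell on the members. Kif3a, the gene deleted to remove cilia, was checked first. Its level in CPM (counts scaled to library size, with TMM factors) was 13.8 to 29.2 in the 15 male mice with Kif3a intact and 4.90 to 7.45 in male Pkd1KO+ciliaKO mice. In females 1 noncystic library (replicate 5, 6.69 CPM) and 1 library labelled Pkd1KO+ciliaKO (replicate 6, 20.7 CPM) went against their labels, and female results were also computed without these 2. Whole-gene Pkd1 counts did not pass the test in any comparison (edgeR adjusted p of at least 0.0991), and floxed exons were not counted separately. Marker sums of kidney cell types are in CPM without TMM factors. Marker values of these cell types are given beside some results only. They are not given for the female genotype comparisons or for male Pkd1KO+ciliaKO against noncystic mice, some of which also had called markers.

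**Figure D1:**
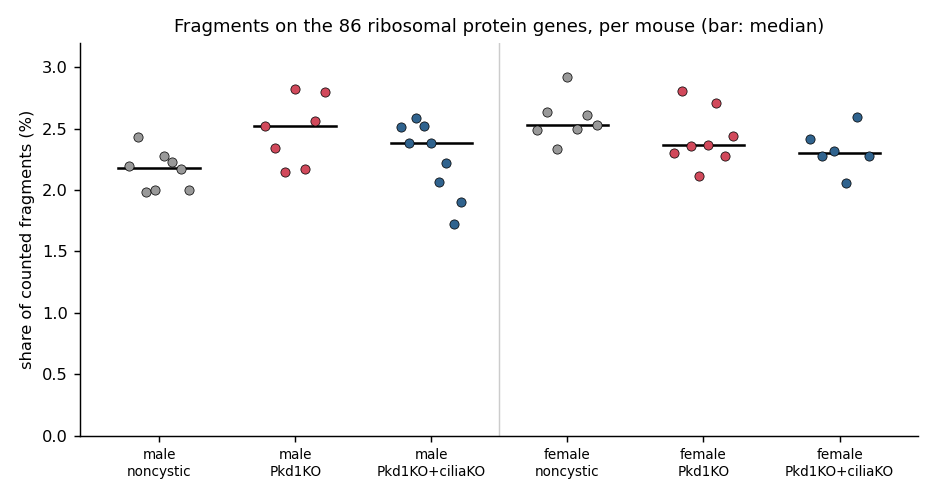
Share of counted fragments (y axis, percent) that fell on the 86 ribosomal protein genes, with 1 point per mouse and a bar at the median of each of the 6 groups. The medians run from 2.18% in male noncystic to 2.53% in female noncystic mice, and the points of all 6 groups overlap.

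The share of fragments on the members gave the overall level. Its lowest, median and highest values were 1.99%, 2.18% and 2.43% in male noncystic mice. In male Pkd1KO mice they were 2.14%, 2.52% and 2.83%, and in male Pkd1KO+ciliaKO mice 1.73%, 2.38% and 2.59%. The order was different in females, where the noncystic mice were highest with a median of 2.53% (2.34% to 2.92%), Pkd1KO mice had 2.36% (2.11% to 2.81%) and Pkd1KO+ciliaKO mice 2.30% (2.05% to 2.60%). All groups overlapped, as the plot of shares per mouse shows. On the TPM scale the summed level had a median of 43825 in male noncystic and 50570 in female noncystic mice, a ratio of 1.15, while summed CPM gave a ratio of 1.03.

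The comparison of Pkd1KO with noncystic males asks what loss of polycystin-1 changes at this precystic stage. Of the 86 members 1 passed the quasi-likelihood test of edgeR at an adjusted p of 0.05 (Benjamini-Hochberg over all genes), which is named a call here, against 6.3% of the 15991 genes tested. Rps19, a protein of the small subunit that is needed for its maturation and that is mutated in Diamond-Blackfan anaemia, had 166, 209 and 250 CPM as lowest, median and highest value in noncystic males. In Pkd1KO males it had 233, 260 and 302 CPM, so that the groups overlapped only in the top of the noncystic range. The log2 fold change was 0.34 (SE 0.09, edgeR adjusted p = 0.0309). The call was lost without any 1 of 6 of the 15 mice, with an edgeR adjusted p of up to 0.0596, and with the 3 genotypes in one fit, the replicate block and limma on TPM.

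The other 85 members did not pass, but their estimates leaned one way. The median log2 fold change of the members was 0.15, with 80 of 86 above 0, where all genes had a median of -0.01 and 48.4% above 0. At an unadjusted p under 0.05, 17 members were higher and 1 lower, and among all genes 12.9% were higher and 9.19% lower. Small-subunit genes had a median of 0.17 with 32 of 32 above 0, and large-subunit and stalk genes had 0.13 with 48 of 53. The estimates next to Rps19 in rank were Rpl12 with 0.31 (SE 0.11, edgeR adjusted p = 0.108) and Rpl3l with -0.61 (SE 0.22, edgeR adjusted p = 0.109), and the highest was Rps12 with 0.36 (edgeR adjusted p = 0.124). The members move together from mouse to mouse, so their estimates are not independent of each other. The summed CPM of 4 macrophage markers was 62.4 to 85.1 in noncystic and 85.5 to 206 in Pkd1KO males, ranges that only just missed each other, and 1 of the 4 was called. The summed level of 7 proximal tubule markers had medians of 9232 and 7345 CPM in the same groups, with 1 of 7 called lower. The part of both in these estimates was not tested.

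In the comparison of male Pkd1KO with Pkd1KO+ciliaKO mice, which asks what depends on intact cilia, again 1 member was called, against 3.77% of all genes. It was Rpl29, a small basic protein of the large subunit, with a log2 fold change of 2.18 (SE 0.26, edgeR adjusted p = 0.000107), although 1 of the 7 Pkd1KO males was as low as the Pkd1KO+ciliaKO mice. The median over the members was 0.13 with 84 of 86 above 0, and for all genes it was 0.01 with 51.8% above 0. An unadjusted p under 0.05 was found for 7 members, all higher in Pkd1KO, with 10.5% of all genes higher and 9.26% lower at that level. Rpl3, which helps form the peptidyl transferase centre, followed Rpl29 in rank with 0.28 (SE 0.09, edgeR adjusted p = 0.0983), and the stalk protein Rplp1 had 0.30 (SE 0.11, edgeR adjusted p = 0.155). On the log2(TPM + 1) scale the median was 0.016. Rps19, at 132 to 260 CPM in Pkd1KO+ciliaKO males, was 0.29 higher in Pkd1KO (SE 0.13) and did not pass (edgeR adjusted p = 0.216). No member was therefore called in Pkd1KO against both other genotypes in males. The macrophage marker sum was 46.5 to 88.6 CPM in Pkd1KO+ciliaKO males, against the 85.5 to 206 CPM of Pkd1KO males, and 1 of the 4 markers was called (Csf1r, 0.77). For the thick ascending limb 2 of 4 markers were called lower in Pkd1KO (summed medians of 2066 and 3321 CPM), and for intercalated cells 2 of 5 (205 and 268 CPM). Their part in these estimates was not tested.

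Between male Pkd1KO+ciliaKO and noncystic mice, Rpl29 was the 1 member called, at a log2 fold change of -1.95 (SE 0.22, edgeR adjusted p = 1.85e-05), against 8.89% of all genes. The members' median was 0.01 with 51 of 86 above 0, where 52.0% of all genes were above 0. At an unadjusted p under 0.05, 3 members were lower and 0 higher, with 14.0% of all genes higher and 10.3% lower. Beside Rpl29 these were Rpl3l (-0.67, SE 0.23, edgeR adjusted p = 0.0779) and Rpl36al (-0.31, SE 0.13, edgeR adjusted p = 0.153).

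**Figure D2:**
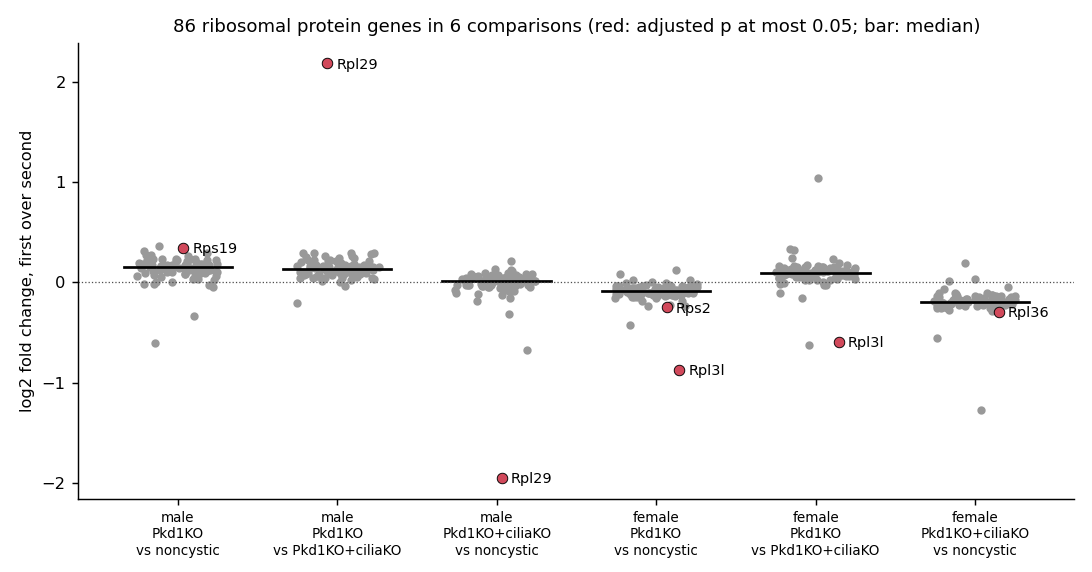
Log2 fold change (y axis) of each of the 86 ribosomal protein genes in the 6 comparisons of genotypes within a sex (x axis), from the edgeR fit; red named points passed an adjusted p of 0.05, grey points did not, and bars mark the median. Rpl29 at 2.18 and -1.95 in males lies far from the other members, whose medians run from -0.19 to 0.15.

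Rpl29 (ENSMUSG00000048758.14, chromosome 9, 106429454 to 106431568, plus strand, GRCm38) was the member that varied most between mice of a group, with a within-group SD of 0.77 on the log2 CPM scale against a median of 0.20 over the members and 0.22 over all genes. Noncystic males had 49.4, 174 and 252 CPM as lowest, median and highest value, and Pkd1KO males 46.3, 206 and 317 CPM. All 9 Pkd1KO+ciliaKO males lay between 30.9 and 51.8 CPM. The ranges touched only because 1 noncystic mouse (replicate 5) and 1 Pkd1KO mouse (replicate 4) were as low as the Pkd1KO+ciliaKO mice.

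The same levels were found in females. Noncystic females had 48.6, 143 and 268 CPM, Pkd1KO females 35.7, 134 and 167 CPM and Pkd1KO+ciliaKO females 35.5, 41.4 and 171 CPM. Over all 45 mice no value lay between 51.8 and 127 CPM, which left 19 mice below this gap and 26 above it. The 19 were 1 of 8 noncystic, 1 of 7 Pkd1KO and 9 of 9 Pkd1KO+ciliaKO males, and 2 of 7, 1 of 8 and 5 of 6 females. The 1 Pkd1KO+ciliaKO female above the gap was the library with a high Kif3a level (171 CPM of Rpl29), and 1 of the 2 noncystic females below it was the library with a low one (48.6 CPM). The other 4 mice below the gap outside the Pkd1KO+ciliaKO groups had Kif3a at 24.4 to 25.5 CPM. They were male noncystic replicate 5, male Pkd1KO replicate 4, female noncystic replicate 2 and female Pkd1KO replicate 4. The gap was noticed after the values were seen, and nothing is tested across it.

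With all libraries the female differences did not pass, at 1.04 (SE 0.38, edgeR adjusted p = 0.0860) for Pkd1KO against Pkd1KO+ciliaKO and -1.27 (SE 0.47, edgeR adjusted p = 0.140) for Pkd1KO+ciliaKO against noncystic. Without the 2 libraries that went against their labels they were 1.65 (SE 0.26, edgeR adjusted p = 0.00144) and -2.04 (SE 0.33, edgeR adjusted p = 0.00487). The sex difference of the Rpl29 change between Pkd1KO and Pkd1KO+ciliaKO was -1.14 (SE 0.51, edgeR adjusted p = 0.549) with all libraries and -0.53 (edgeR adjusted p = 0.796) without those 2.

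Rpl29 has many processed copies, and 84 other genes share runs of its transcript. Summed were the 83 without a TPM value for which Rpl29 was the member sharing most runs. Their summed level was low, between 3.19 and 11.2 CPM, and stood opposite to Rpl29, with medians of 9.45 and 9.65 CPM in male and female Pkd1KO+ciliaKO mice and 4.94 to 7.21 CPM in the other groups. With the copies added to Rpl29, an alternative chosen after seeing the data, the male log2 fold changes were 1.94 (edgeR adjusted p = 0.000166) and -1.72 (edgeR adjusted p = 2.61e-05). A second gene of chromosome 9 had the same mice low, namely the kinase gene Nek11 (105162156 to 105395524), which was singled out after its values were seen. Its level was 0.357 to 1.14 CPM in noncystic males and 0.0952 to 0.257 CPM in Pkd1KO+ciliaKO males, with a log2 fold change of -2.07 (SE 0.23, edgeR adjusted p = 1.67e-05) and no overlap. In each of the 4 noncystic and Pkd1KO groups, the mouse with least Nek11 was below the Rpl29 gap. These were replicates 5 and 4 of the males and replicates 5 and 4 of the females, noncystic first. Within 5 Mb of Rpl29, 20 of 151 tested genes (13.2%) were called between male Pkd1KO+ciliaKO and noncystic mice, where 8.89% of all genes were, and 12 of 151 (7.95%) between male Pkd1KO and Pkd1KO+ciliaKO mice, where 3.77% were. In females these counts were 16 of 150 between Pkd1KO and Pkd1KO+ciliaKO mice (10.7%, against 11.7% of all genes) and 4 of 150 between Pkd1KO+ciliaKO and noncystic mice (2.67%, against 2.54%). Kif3a is on chromosome 11. By label every mouse that lost cilia was Kif3afl/fl, so loss of cilia and any other inherited difference of these mice cannot be told apart for Rpl29. Low Rpl29 was also found in 4 mice with a high Kif3a level, and the cause was not tested.

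**Figure D3:**
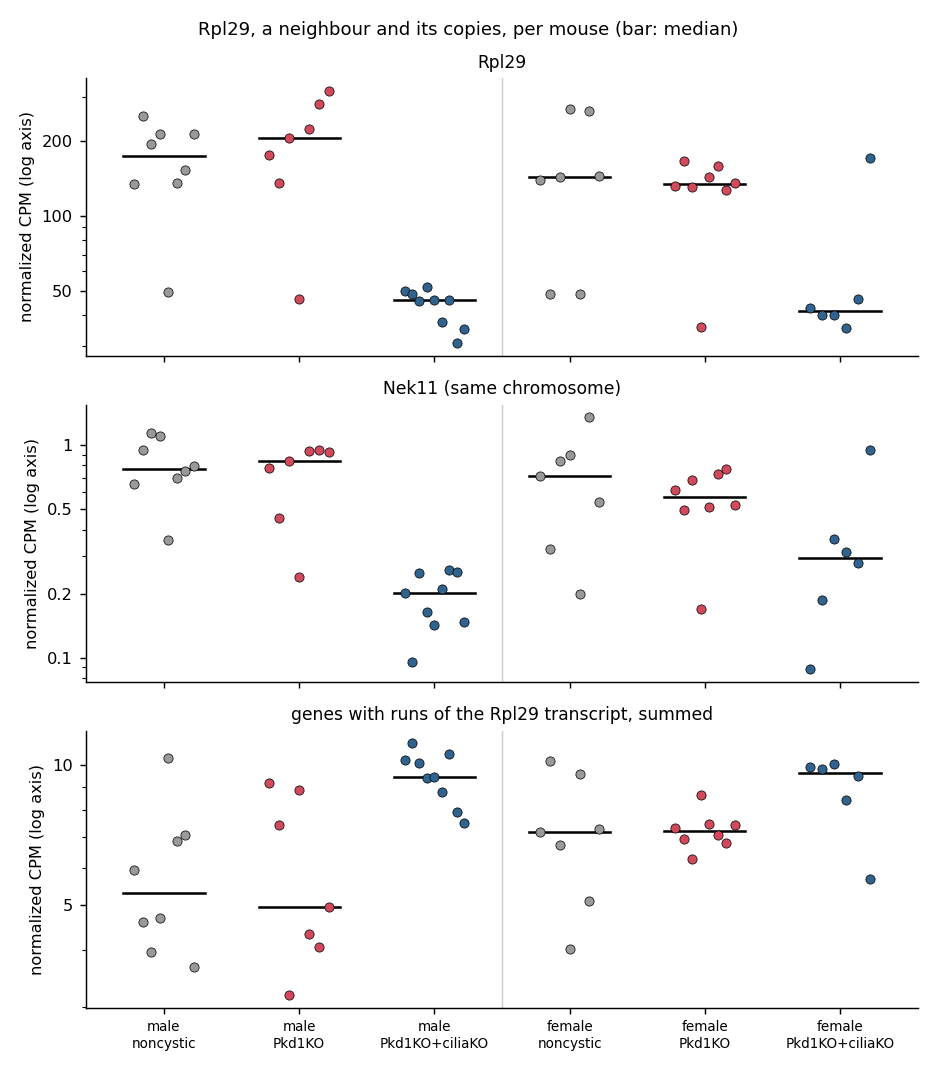
Level per mouse (y axes, normalized CPM on log axes) of Rpl29, of Nek11 on the same chromosome and of 83 genes with runs of the Rpl29 transcript as a sum, in the 6 groups, with bars at the medians. Rpl29 is at or below 51.8 CPM in all 9 male and 5 of 6 female Pkd1KO+ciliaKO mice and in 5 other mice, Nek11 is lowest in mice that are low for Rpl29, and the summed copies run the opposite way.

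In females 2 members were called between Pkd1KO and noncystic mice, against 3.34% of the 15968 genes tested. Rps2, a 40S protein near the mRNA entry of the ribosome, had 435, 470 and 534 CPM in noncystic and 331, 418 and 433 CPM in Pkd1KO females, without overlap. Its log2 fold change was -0.25 (SE 0.07, edgeR adjusted p = 0.0456), and the call was lost without any 1 of 13 of the 15 mice and without the 2 libraries that went against their labels. Rpl3l had 0.73, 0.91 and 1.55 CPM in noncystic and 0.45, 0.58 and 0.76 CPM in Pkd1KO females, ranges that overlapped at their ends. It fell by 0.87 (SE 0.18, edgeR adjusted p = 0.0108) and stayed past the threshold without each of the 15 mice in turn. Rps2 and Rpl3l are neighbours on chromosome 17 (24718116 to 24721929 and 24727820 to 24736143), where Pkd1 lies at 24549834 to 24596508. The floxed Pkd1 alleles differ in number between these groups, and whether this bears on either call was not tested. The other members within 5 Mb of Pkd1, Rpl10a and Rps10, were not called.

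Over all members the female median between Pkd1KO and noncystic mice was -0.09, with 5 of 86 above 0, where the median of all genes was 0.00 with 49.7% above 0. At an unadjusted p under 0.05, 6 members were lower and 0 higher, and of all genes 7.2% were lower and 9.16% higher. The median therefore had the opposite sign to that in males. The test of this sex difference called 0 members, by edgeR and by DESeq2 alike, against 0.0126% of all genes. The interaction estimates had a median of -0.24 with 1 of 86 above 0, where 49.7% of all genes were, and 21 members were lower at an unadjusted p under 0.05 where 6.01% of all genes were. The smallest p was that of Rpl12, a protein of the stalk base, with -0.46 (SE 0.15, edgeR adjusted p = 0.307).

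Between female Pkd1KO and Pkd1KO+ciliaKO mice, which are both Pkd1fl/fl, 1 member was called, against 11.7% of all genes, and it was Rpl3l again. Pkd1KO+ciliaKO females had 0.58, 0.85 and 1.31 CPM, and Pkd1KO mice were lower by a log2 fold change of -0.59 (SE 0.18, edgeR adjusted p = 0.0471). Rpl3l was thus the only member called in Pkd1KO against both other genotypes, in females alone. Against Pkd1KO+ciliaKO the call was lost without any 1 of 12 of the 14 mice and without the 2 libraries that went against their labels (-0.55, edgeR adjusted p = 0.0871). In males Rpl3l was 0.07 higher in Pkd1KO than in Pkd1KO+ciliaKO mice (SE 0.26, edgeR adjusted p = 0.910), and the sex difference did not pass (-0.66, SE 0.32, edgeR adjusted p = 0.621). The median of the members between these groups was 0.10 with 78 of 86 above 0, against 48.0% of all genes, and it was -0.0014 on the log2(TPM + 1) scale. At an unadjusted p under 0.05, 5 members were higher and 2 lower, with 15.2% of all genes higher and 12.5% lower. The test of the sex difference for this pair called 0 members by edgeR and DESeq2, against 0.221% of all genes, with 2 lower at an unadjusted p under 0.05 against 3.83% and 25 of 86 above 0 against 49.6%.

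Female Pkd1KO+ciliaKO mice had the members' lowest median against noncystic females. The median was -0.19 with 3 of 86 above 0, where 52.0% of all genes were above 0, and it was -0.067 on the log2(TPM + 1) scale. On the CPM scale the 53 large-subunit and stalk genes (-0.20) and the 32 small-subunit genes (-0.18) had nearly the same median. At an unadjusted p under 0.05, 48 members were lower and 0 higher, with 12.6% of all genes lower and 8.81% higher. After adjustment over all genes 1 member was called, against 2.54% of all genes. That member was Rpl36, a 60S protein, with 185, 200 and 237 CPM in noncystic and 140, 164 and 183 CPM in Pkd1KO+ciliaKO females, without overlap. It fell by 0.29 (SE 0.07, edgeR adjusted p = 0.0448), and 81.1% of its 50-base runs occur in other genes. The call was lost without any 1 of 10 of the 13 mice and under 6 of 11 alternatives, in which no member was called (DESeq2's size factors, length offsets, no filter, at least 10 counts, the replicate block and limma on TPM). DESeq2 itself called 15 members, all lower and Rpl36 among them, and the share of all genes it called is not reported here. Next in rank were Rpl27a (-0.24, edgeR adjusted p = 0.0516), Rpl21 (-0.22, edgeR adjusted p = 0.0704) and Rps15 (-0.24, edgeR adjusted p = 0.0710). Without the 2 libraries that went against their labels 3 members were called, Rpl29, Rpl36 and Rpl35a (-0.35, edgeR adjusted p = 0.0401), and the median stayed at -0.19. The matching test of the sex difference called 0 members by edgeR and DESeq2, against 0.0316% of all genes, with 8 members lower at an unadjusted p under 0.05 against 3.54% and 6 of 86 above 0 against 47.6%.

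**Figure D4:**
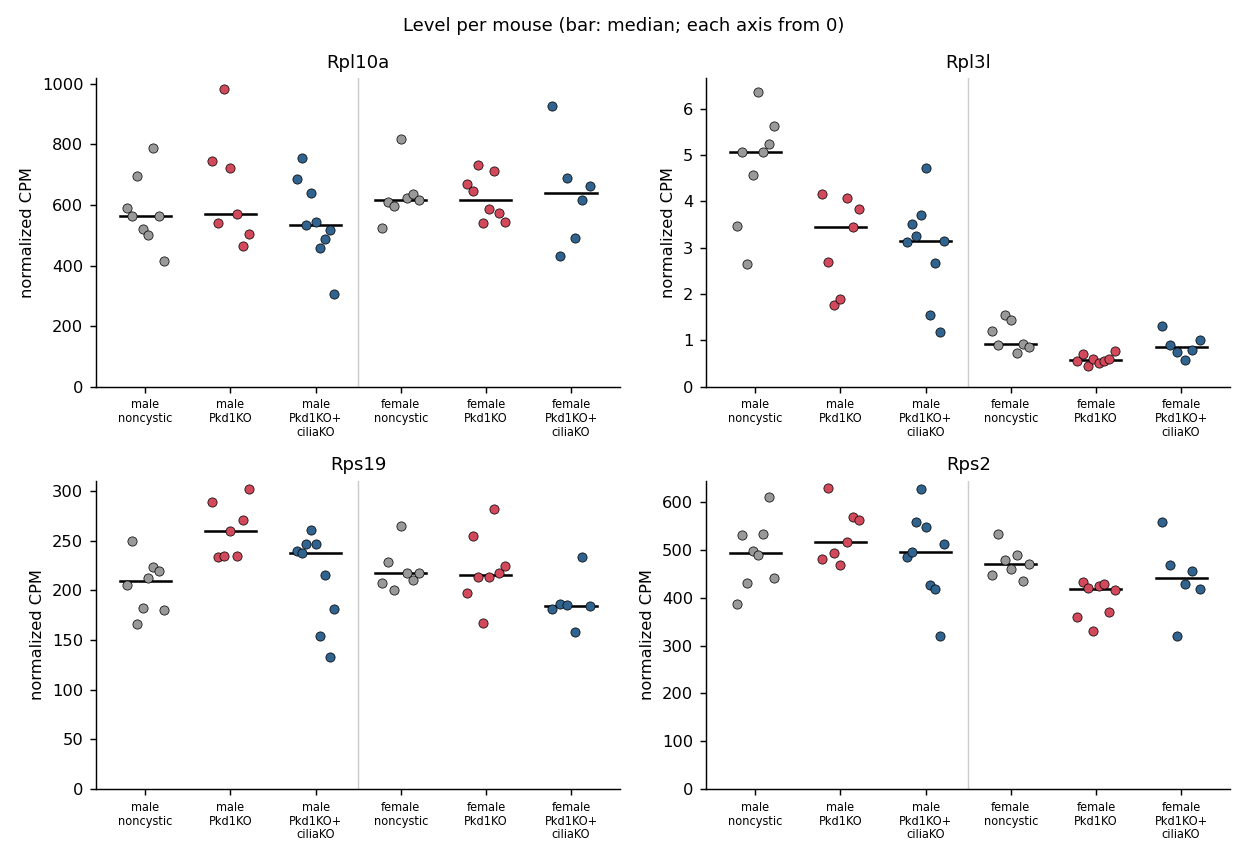
Level per mouse (y axes, normalized CPM from 0) of Rpl10a, Rpl3l, Rps19 and Rps2 in the 6 groups, with bars at the medians. Rpl10a overlaps between all groups, Rpl3l is several-fold lower in females, Rps19 is higher in male Pkd1KO than in most male noncystic mice, and Rps2 in female Pkd1KO mice lies below every female noncystic mouse.

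The sexes were compared in a fit of all 45 mice. In noncystic mice 5 members were called, against 27.4% of all genes, and in Pkd1KO+ciliaKO mice 3, against 19.4%. In Pkd1KO mice 7 were called, against 30.6%. The median of the members for females over males was 0.12 in noncystic mice with 72 of 86 above 0, against 54.6% of all genes. It was -0.11 in Pkd1KO mice with 7 above 0, against 49.2%, and -0.09 in Pkd1KO+ciliaKO mice with 8 above 0, against 51.8%.

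Rpl3l was called in all 3 genotypes. Males had 2.64 to 6.35 CPM when noncystic, 1.77 to 4.16 CPM as Pkd1KO and 1.18 to 4.71 CPM as Pkd1KO+ciliaKO, and the female values all lay between 0.45 and 1.55 CPM. Its log2 fold changes for females over males were -2.13 (SE 0.23, edgeR adjusted p = 2.4e-09), -2.40 (SE 0.23, edgeR adjusted p = 9.4e-11) and -1.75 (SE 0.24, edgeR adjusted p = 9.67e-07), in the order noncystic, Pkd1KO and Pkd1KO+ciliaKO. The sexes did not overlap in noncystic and Pkd1KO mice. Its widely expressed relative Rpl3 had 327 to 647 CPM over all mice of both sexes and was not called.

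The other sex differences were small. In noncystic mice Rps3 (0.22, edgeR adjusted p = 0.0298), Rpl36a (0.22, edgeR adjusted p = 0.0417) and Rpl19 (0.21, edgeR adjusted p = 0.0481) were higher in females and Rpl36al was lower (-0.46, edgeR adjusted p = 0.0251). The Rpl19 call held in 4 of 9 alternatives and in 20 of the 45 fits that left out 1 mouse. Those of Rps3 and Rpl36a held in 6 of 9 alternatives and that of Rpl36al in all 9. Rps3 also acts in DNA repair, and Rpl36a is X-linked. In Pkd1KO mice females were lower for Rps2, Rpl22l1, Rpl13a, Rplp1, Rpl17 and Rpl12, with log2 fold changes from -0.51 for Rpl22l1 (edgeR adjusted p = 0.00879) to -0.28 for Rpl12. Rps2 had 469 to 629 CPM in Pkd1KO males and 331 to 433 CPM in Pkd1KO females, without overlap (-0.42, SE 0.10, edgeR adjusted p = 0.00194). In the same comparison 4 of 4 macrophage markers (median -1.16), 2 of 4 of endothelium and 2 of 3 of T cells were called lower in females, and 4 of 4 of the thick ascending limb (median 0.57) and 5 of 5 of intercalated cells (median 0.43) were called higher. The highest male Pkd1KO sums of macrophage, endothelium and T cell markers were all in replicate 4 (206, 291 and 6.43 CPM). Group medians of these sums were 98.6, 76.5 and 1.465 CPM in males and 81.8, 61.4 and 1.56 CPM in females. The part of these cells in the member levels was not tested. Rpl22l1, the paralog that takes the place of Rpl22 in some ribosomes, had 10.5 to 23.9 CPM in males and 9.44 to 13.9 CPM in females, which overlapped, and Rpl22 itself did not pass in any comparison. In Pkd1KO+ciliaKO mice Rps27l (-0.36, edgeR adjusted p = 0.0306), a p53-induced paralog of Rps27, and Rpl41 (-0.38, edgeR adjusted p = 0.0316), the smallest ribosomal protein, were lower in females.

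Rpl10a is the member whose tagged copy was pulled down, and reads of the tagged transcript that match the gene are counted with it. Its level was 415, 563 and 788 CPM in male noncystic, 463, 571 and 983 CPM in male Pkd1KO and 304, 534 and 755 CPM in male Pkd1KO+ciliaKO mice. Females had 524, 616 and 818 CPM, 539, 617 and 733 CPM, and 432, 640 and 926 CPM in the same order. All groups overlapped, and it was called in none of the 9 comparisons of genotypes or sexes (edgeR adjusted p of at least 0.359).

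The variation of Rpl10a between mice of a group was wide. Its within-group SD of 0.31 on the log2 CPM scale ranked at 6 among the 86, and its correlation with the other members, over 45 mice and after removing group means, had a median of 0.26 where pairs of members had a median of 0.74. Rpl29 (0.19), Rpl36al (0.18) and Rps10 (-0.11) were lower still. The members most like Rpl10a were Rps27l at 0.49, Rps27 at 0.48 and Rpl41 at 0.46, and these mice share libraries and depth scaling, so the values describe and do not test. In male Pkd1KO replicate 3 Rpl10a was the highest of all mice at 983 CPM, while 81 of the 86 members were below the mean of that mouse's group mates.

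The members as a whole moved together from mouse to mouse. A first component held 58.7% of their within-group variance, against 55.0% for 77 mitochondrial ribosomal protein genes and 23.8% for all genes. In male Pkd1KO+ciliaKO replicate 8, 83 of 86 members lay below the mean of the group mates, by a median of -0.52 on the log2 scale, and 70 were the lowest of their group. Female noncystic replicate 4 lay at the other end, with 80 members above and 74 of them the highest of the group. In the other 5 groups, the mouse lowest for most members was male noncystic replicate 3 (58 members), male Pkd1KO replicate 3 (56), female noncystic replicate 3 (45), female Pkd1KO replicate 4 (61) and female Pkd1KO+ciliaKO replicate 4 (59). In male noncystic replicate 3, male Pkd1KO+ciliaKO replicate 8 and female Pkd1KO replicate 4 the summed markers of podocytes, endothelium and fibroblasts were each the highest of the group, with fibroblast sums of 484, 394 and 606 CPM. In female noncystic replicate 3 all 3 sums were the lowest of the group. Mice high for these markers were found on the other side too. Male Pkd1KO replicate 4 had the highest sums of its group (172, 291 and 609 CPM in the same order) with 63 of 86 members above the mean of its group mates. Female Pkd1KO+ciliaKO replicate 5 also had the highest sums (130, 134 and 530 CPM) and was the highest of its group for 52 members. The part of such cells in the member levels was not tested.

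**Figure D5:**
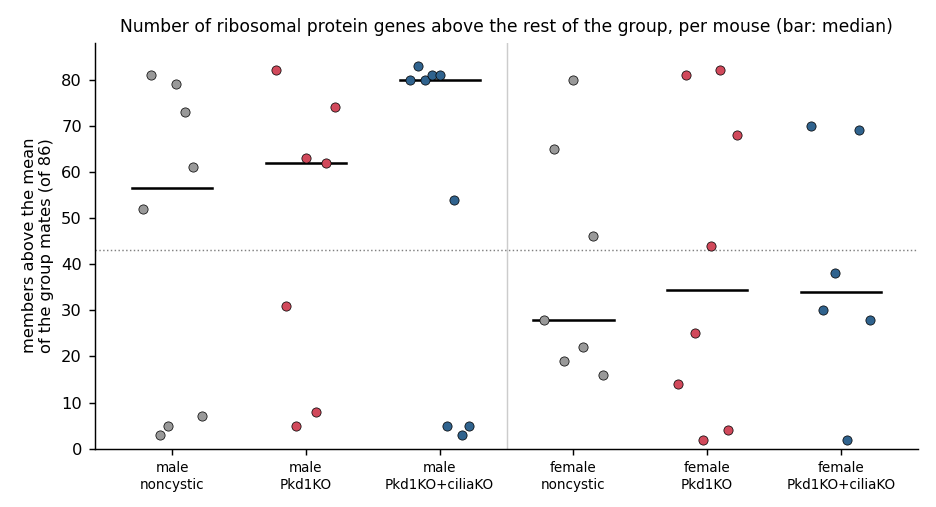
Number of the 86 ribosomal protein genes above the mean of the other mice of the group (y axis), with 1 point per mouse, a bar at the median of each group and a dotted line where as many members are above as below. The points spread over nearly the whole range, from 2 members in replicates 4 of female Pkd1KO and Pkd1KO+ciliaKO mice to 83 in male Pkd1KO+ciliaKO replicate 2.

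Rpl7l1, a nucleolar relative of Rpl7 that takes part in ribosome assembly, varied least of all members, with a within-group SD of 0.12. It had 83.5 to 126 CPM over all 45 mice. By length of the pyrimidine run, the 27 members with at least 8 bases and the 36 without had medians of 0.16 and 0.14 in male Pkd1KO against noncystic mice, and of -0.17 and -0.20 in female Pkd1KO+ciliaKO against noncystic mice.

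Genes of the same pathway were read from lists. Of 16 other TOP mRNAs, among them those of elongation and initiation factors, 0 were called in each of the 3 male comparisons and in female Pkd1KO against noncystic mice. Shares of all genes called in males were 6.3% (Pkd1KO against noncystic), 3.77% (Pkd1KO against Pkd1KO+ciliaKO) and 8.89% (Pkd1KO+ciliaKO against noncystic). In females they were 3.34%, 11.7% and 2.54% in the same order, and these shares apply to all lists below. Btf3, a factor of nascent chains, was higher in female Pkd1KO than in Pkd1KO+ciliaKO mice (0.35, edgeR adjusted p = 0.0103), and Eef1d, an exchange factor of elongation, was lower in female Pkd1KO+ciliaKO than in noncystic mice (-0.23, edgeR adjusted p = 0.0360). The medians of these 16 were 0.06 in male Pkd1KO against noncystic mice, 0.11 in male Pkd1KO against Pkd1KO+ciliaKO mice and -0.13 in female Pkd1KO+ciliaKO against noncystic mice. Of 30 genes of ribosome assembly and rRNA synthesis, Eif6, which keeps free 60S subunits apart from 40S, was the 1 called in males. It was higher in Pkd1KO than in Pkd1KO+ciliaKO mice (0.22, edgeR adjusted p = 0.0463) and lower in Pkd1KO+ciliaKO than in noncystic mice (-0.19, edgeR adjusted p = 0.0303). Mrto4, a nuclear stand-in for the stalk protein Rplp0, was higher in female Pkd1KO than in Pkd1KO+ciliaKO mice (0.25, edgeR adjusted p = 0.0462). The assembly list had a median of -0.06 in male Pkd1KO against noncystic mice, with 6 of 30 above 0. Between the sexes 1 of its 30 genes was higher and 4 lower in noncystic females (27.4% of all genes called), 6 were higher and 2 lower in Pkd1KO females (30.6%) and 2 lower in Pkd1KO+ciliaKO females (19.4%).

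Among 12 genes that control TOP mRNAs, Tsc2, an inhibitor of mTORC1, was lower in male Pkd1KO than in noncystic mice (-0.32, SE 0.08, edgeR adjusted p = 0.0224), and Mtor was higher in female Pkd1KO than in Pkd1KO+ciliaKO mice (0.58, SE 0.13, edgeR adjusted p = 0.0108). Tsc2 is the neighbour of Pkd1 on chromosome 17, and whether this position bears on its call was not tested. Between the sexes 2 of the 12 were called higher and 5 lower in noncystic females, against 27.4% of all genes. In Pkd1KO females 1 was called higher and 2 lower (30.6%), and in Pkd1KO+ciliaKO females 1 was called lower (19.4%). Among these, Mtor was lower in noncystic females than males (-1.01, edgeR adjusted p = 7.19e-06) and in Pkd1KO+ciliaKO females than males (-0.75, edgeR adjusted p = 0.00119). Of 8 genes known from nucleolar stress and p53, Cdkn1a (1.29, edgeR adjusted p = 0.0127), Zmat3 (0.96, edgeR adjusted p = 0.00103) and Phlda3 (0.88, edgeR adjusted p = 0.0409) were higher in male Pkd1KO than in noncystic mice. The same 3 and Ccng1 (0.82, edgeR adjusted p = 9.09e-05) were higher in male Pkd1KO+ciliaKO than in noncystic mice, and Zmat3 alone was in female Pkd1KO mice (0.69, edgeR adjusted p = 0.0049). In noncystic mice Cdkn1a (1.005, edgeR adjusted p = 0.000512) and Phlda3 (0.82, edgeR adjusted p = 0.000833) were higher in females than in males. The test of the sex difference between Pkd1KO and noncystic mice called 0 of the 8, against 0.0126% of all genes. Rps27l, the p53-induced member, was called in none of the genotype comparisons.

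The 77 mitochondrial ribosomal protein genes, which serve the separate ribosome of mitochondria, had 0 called in both male comparisons with Pkd1KO. In females 11 of 77 were higher in Pkd1KO than in Pkd1KO+ciliaKO mice, where 11.7% of all genes were called, and 4 of 77 were lower in Pkd1KO+ciliaKO than in noncystic mice, where 2.54% were. Between the sexes 1 was higher and 14 lower in noncystic females (27.4% of all genes called). In Pkd1KO females 2 were higher and 11 lower (30.6%), and in Pkd1KO+ciliaKO females 27 were lower (19.4%). Of the 4 ribosomal proteins whose symbols the rule does not reach, Rpsa was lower in female than in male Pkd1KO mice (-0.38, edgeR adjusted p = 0.0098), and none was called between genotypes.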

How the data were processed

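TRAP RNASeq libraries of 45 mice were compared. The authors deposited raw gene counts per mouse, from reads trimmed with fastp 0.20.0, aligned with STAR 2.7.9 and counted with featureCounts 2.0.0, and TPM of the protein-coding genes that reached 6 counts in 20% of the mice of a sex or more. The strand and multimapping options are not given in the sources used here. Coordinates are those of GRCm38.

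Counts of each pair of genotypes within a sex were fitted with edgeR 4.0.16 in R 4.3.3 (TMM, quasi-likelihood test, Benjamini-Hochberg over all 15991 male or 15968 female genes, adjusted p of at most 0.05). The sexes and the sex differences were tested in 1 fit of all 45 mice over 15828 genes. The fit was tested on simulated data. CPM were scaled over all 45 mice. Within-group values are deviations of log2(CPM + 0.1) from group means. Each mouse was 1 replicate, and replicate numbers do not pair mice. DESeq2 1.42.0, limma 3.58.1 on log2(TPM + 1), other normalization, length offsets, filters, a replicate block, leaving out mice and summing copies were alternatives. Library totals ran from 80874556 to 132958186 counts, no member was at 0 in any mouse, and all libraries were sequenced as 1 batch.

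The members, lists and tests were chosen with earlier results of these data known. Named were Rpl10a, Pkd1 and Kif3a, the 3 members with the smallest p and those with extreme fold changes in each comparison, called members, members of highest and lowest TPM, and paralogs. The lists printed are ribosomal proteins outside the rule, other TOP mRNAs, ribosome assembly, control of TOP mRNAs, nucleolar stress and mitochondrial ribosomal proteins. Markers of proximal tubule, thick ascending limb, intercalated cells, podocytes, endothelium, fibroblasts, macrophages and T cells were summed in each mouse. Summing of copies, the gap in Rpl29 levels and Nek11 were chosen after seeing the data. Single results for some members are not reported here.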

Additional observations from a re-analysis of the deposited data

Results flagged for a closer look

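Of 54 groups of values examined, 8 held a mouse farther from its group mates than Dixon's 95% limit, and chance gives such a mouse in about 1 of 20 groups. For the members these were Rpl10a in female noncystic replicate 4 (818 CPM, next value 634.5), Rpl36 in the same mouse (236.7 CPM, next 203.6), Rpl29 in female Pkd1KO replicate 4 (35.68 CPM, next 127.1) and Rpl29 in female Pkd1KO+ciliaKO replicate 6 (171.2 CPM, next 46.44). Kif3a stood apart in female noncystic replicate 5 (6.688 CPM, next 23.21) and female Pkd1KO+ciliaKO replicate 6 (20.72 CPM, next 8.466), the 2 libraries that went against their labels. It also stood apart in male noncystic replicate 8 (13.77 CPM, next 20.42) and male Pkd1KO replicate 3 (29.25 CPM, next 24.86).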

How the results depend on the processing

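The Rpl29 calls in males held under all 10 alternatives and without each mouse in turn. The number of members called changed as follows, with smaller shifts given last. In male Pkd1KO against noncystic mice it went from 1 to 0 with the 3 genotypes in one fit, with the replicate block and with limma on TPM. DESeq2 gave 2 in both other male comparisons. In female Pkd1KO against noncystic mice it went from 2 to 1 in one fit, without a filter and without the 2 libraries that went against their labels, and to 0 with the block. Against Pkd1KO+ciliaKO females it went from 1 to 2 with DESeq2, length offsets and limma, to 0 without a filter and with the block, and to 3 with copies summed. In female Pkd1KO+ciliaKO against noncystic mice it was 15 with DESeq2, 3 with copies summed or without those 2 libraries, and 0 with DESeq2's size factors, length offsets, no filter, at least 10 counts, the block and limma. Shares of all genes called under the alternatives are not reported here. Between the sexes it was 3 (DESeq2's size factors, the block, without those 2 libraries) or 2 (no filter) instead of 5 in noncystic mice, and 6 with the block instead of 3 in Pkd1KO+ciliaKO mice. Smaller shifts were 4 instead of 5 in noncystic mice (DESeq2, length offsets), 5 (block), 6 (without those 2 libraries) or 8 (length offsets, copies summed) instead of 7 in Pkd1KO mice, and 2 instead of 3 in Pkd1KO+ciliaKO mice without those 2 libraries. The cause was not tested.

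Leaving out 1 mouse gave 0 to 1, 1 to 2 and 1 to 3 calls in males (Pkd1KO against noncystic, Pkd1KO against Pkd1KO+ciliaKO, Pkd1KO+ciliaKO against noncystic), 1 to 2, 0 to 1 and 0 to 5 in females, and 1 to 7, 5 to 9 and 1 to 7 between the sexes. The sex differences had 0 calls throughout. Summed CPM gave 1.03 instead of 1.15 for female over male noncystic mice.

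Estimates that passed no test changed sign in a few settings. Rpl3l in male Pkd1KO against Pkd1KO+ciliaKO was -0.053 with the block, -0.022 with limma and -0.038 to 0.176 without 1 mouse. Rpl10a was 0.0017 with the block in male Pkd1KO+ciliaKO against noncystic (-0.152 to -0.0030 without 1 mouse). In female Pkd1KO against noncystic it was 0.020 with the block, 0.016 with limma and -0.051 to 0.049 without 1 mouse. In female Pkd1KO against Pkd1KO+ciliaKO it was 0.058 with the block and -0.116 to 0.109 without 1 mouse, and in female Pkd1KO+ciliaKO against noncystic -0.026 with the block, -0.0049 without the 2 libraries and -0.126 to 0.108 without 1 mouse. The members' median was -0.0014 with limma in female Pkd1KO against Pkd1KO+ciliaKO, -0.021 to 0.064 without 1 mouse in male Pkd1KO+ciliaKO against noncystic, and for the sex difference of Pkd1KO against Pkd1KO+ciliaKO 0.047 with the block and -0.078 to 0.015 without 1 mouse. Same-numbered mice did not deviate together (correlations of -0.27 to 0.26).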
